A study of Mus musculus with 8 samples.

Results

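The 39 genes described here encode the actin cytoskeleton of macrophages. They cover actins, proteins that bind actin monomers or turn filaments over, and the branching complex Arp2/3 with Was, Vasp and Coro1a. Also included are capping and severing proteins, bundling and cross-linking proteins, and myosin light and heavy chains with tropomyosins. Adhesion and membrane linkers and the intermediate filament gene Vim complete the list. The 39 genes were taken by name from the 53342 genes listed in each count table. All 39 were above 0 in at least 1 library, and 37 had enough counts for the test. Vcl, with 53 counts over all libraries, and Actg1, with 46, did not, and their values are given without a test. The cells came from wild type C57BL/6 mice, 8 weeks old, whose hearts were collected 3 days after myocardial infarction. Macrophages were sorted into a Ly6Chi and a Ly6Clo subset, named for a high or a low amount of the surface antigen Ly6C, and each subset spent 24 hours in culture. By label, 4 of the 8 cultures held the T cell cytokine interleukin 21 (IL-21) at 100 ng/mL and the others held none. The 4 groups, Ly6Chi and Ly6Clo cells each with and without IL-21, had 2 libraries each, numbered 1 and 2 in their titles. The series also names il21r-/- mice, which were not analysed here.

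Actin monomers join into filaments that push the membrane of a moving or engulfing macrophage forward. Profilin, cofilin and thymosins set the supply of monomers, Arp2/3 starts side branches, VASP helps filaments grow, and capping proteins stop them. Bundling proteins such as L-plastin, fascin and alpha-actinin tie filaments into podosomes, filopodia and cables, while myosin pulls on them and talin, vinculin and zyxin anchor them at adhesions. Free monomer also feeds back on transcription, because it holds the coactivators MRTF away from serum response factor, which binds a short DNA motif called the CArG box.

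The CArG box is a sequence feature that took no part in the choice of genes, and the members that hold it near an annotated start are shown for that reason. It was searched on both strands from 250 bases before to 50 bases after each annotated start, in RefSeq promoter windows of GRCm38.p6. Of the 36 members with a window, 5 (13.9%) held the box, against 488 of 27025 genes (1.81%). Actb, Cotl1 and Lsp1 had no window. The stretches are printed 5′ to 3′ on the strand of the gene, with the box in capitals.
Actg1: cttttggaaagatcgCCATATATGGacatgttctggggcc
Arpc4: CCTAATTTGGtgcccaacctgaggt
Cnn2: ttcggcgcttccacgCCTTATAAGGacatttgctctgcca
Myl6: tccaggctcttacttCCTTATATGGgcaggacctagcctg
Vcl: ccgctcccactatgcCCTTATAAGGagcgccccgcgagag

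These stretches lie at chr11:120348561-120348600 (minus strand, Actg1), chr6:113377863-113377887 (plus, Arpc4), chr10:79988529-79988568 (plus, Cnn2), chr10:128493035-128493074 (minus, Myl6) and chr14:20929156-20929195 (plus, Vcl). The box of Cnn2 and that of Vcl have the same 10 letters. Counted to the RefSeq start of the window, it begins 56 bases before that of Cnn2, 227 before that of Vcl, 90 before that of Actg1 and 250 before that of Arpc4. Myl6 has 2 windows, and its box lies in that of the downstream start, 50 bases before it and inside the annotated gene (128490860 to 128494145 in GENCODE M21). A match is a run of letters, and binding was not measured.

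Total deposited counts ranged from 224329 to 483593 per library, and 3 counts corresponded to 6.58 to 14.9 CPM (counts scaled to a common library size by TMM). The cells carried the labelled markers: 9 of 10 macrophage markers were above 0 in every library, with Itgam at 0 in all 8, and Ly6c2 was 372 to 546 CPM in Ly6Chi and 12.0 to 74.6 CPM in Ly6Clo libraries. Summed neutrophil markers were 641 to 2336 CPM, most of it Mmp8, with Ly6g, Retnlg, Ngp and Mpo at 0. Fibroblast markers summed to 22.6 to 198 CPM, smooth muscle markers to at most 36.0, cardiomyocyte markers to at most 108, endothelial markers (nearly all Kdr) to 66.4 to 337, platelet and erythroid markers to at most 32.0 and T, B and NK cell markers to at most 9.93. In bulk libraries, fewer cells of a type and less RNA per cell cannot be told apart. Whether the replicates of a group are separate mice or separate cultures is not in the labels, so p-values measure the spread between these libraries alone, and that spread may be technical.

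Actin cytoskeleton transcripts were among the most abundant of these cells. Together they took 2.6 to 3.1% of the deposited counts. Of the 39 genes, 33 lay above the median level of the genes tested, and 18 lay in the highest 10%. The libraries read 1 end of each transcript, so CPM was not divided by transcript length when genes are set side by side. Actb, the main cytoplasmic actin, led with a mean of 6577 CPM, followed by Tmsb4x, which sequesters monomers (5248 CPM), Arpc1b, an Arp2/3 subunit (3530 CPM), Vim (2061 CPM), the Arp2/3 subunit Arpc2 (1820 CPM) and the myosin light chain Myl12a (1008 CPM). The first 3 made up 49.8% of the counts of all members. Another 27 members had means of 103.5 to 886 CPM. At the low end stood Was, an Arp2/3 activator (63.2 CPM), Cnn2, a calponin (43.7 CPM), Fscn1, the bundling protein fascin (32.6 CPM), vinculin's gene Vcl (24.2 CPM), Lsp1, a leukocyte protein that binds F-actin (23.2 CPM), and Actg1 (20.5 CPM).

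The counts of the 2 cytoplasmic actins were far apart. In the order number 1, number 2, Actb had 7739 and 5521 CPM in Ly6Chi cells without IL-21, 6825 and 6046 with it, 6999 and 5812 in Ly6Clo cells without it, and 7230 and 6448 with it. Actg1 had 20.5 and 15.2, 7.53 and 24.8, 29.1 and 19.8, and 32.0 and 14.8 CPM in the same order, from 2 to 9 counts per library. Over the 8 libraries Actg1 supplied 0.303% of the counts of both genes (46 against 15125). Neither 3′ end resembled that of another gene by the search described further on. That search does not show how completely reads of a gene were assigned to it, which was not tested.

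**Figure D1:**
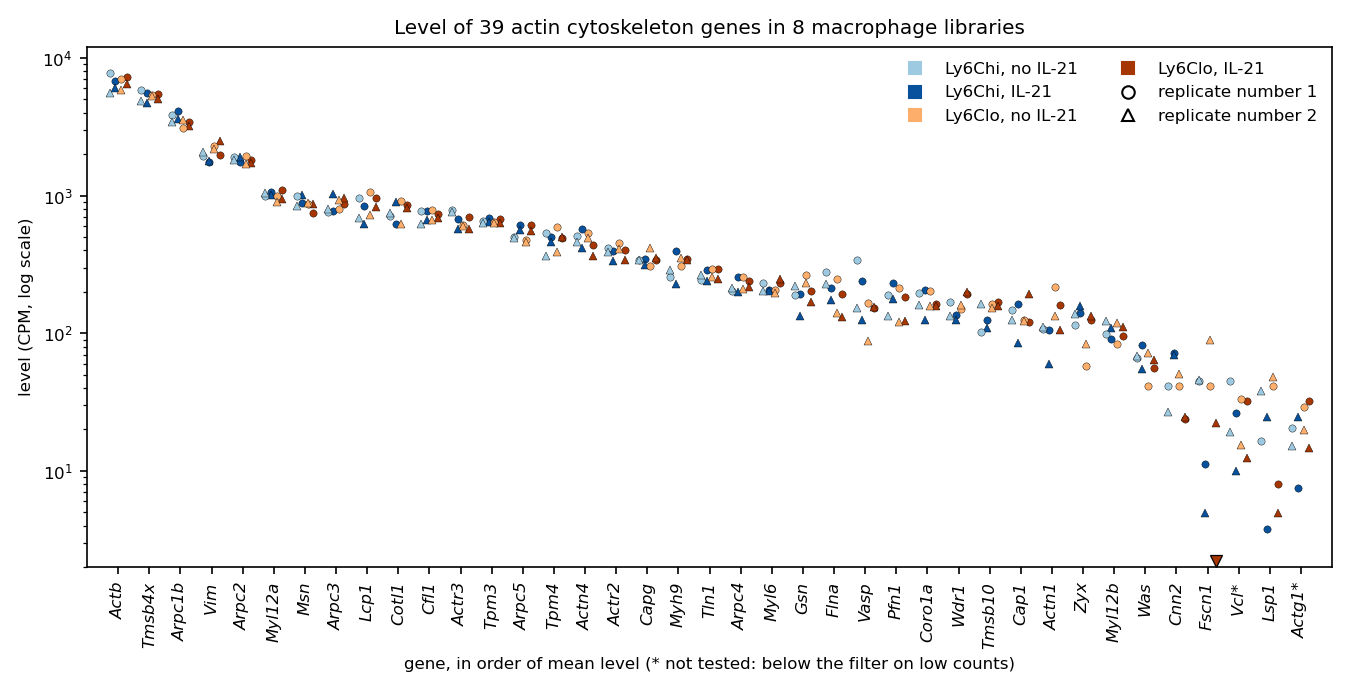
Level of each of the 39 genes (CPM, log scale) in the 8 libraries, with genes in order of mean level, colours for the 4 groups, and circles and triangles for replicate numbers 1 and 2. The downward triangle marks the Ly6Clo library with IL-21 numbered 1, where Fscn1 had 0 counts, and the points of the abundant genes at the left lie close together while those of Vasp, Actn1 and the rarest genes at the right spread out.

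Most members varied little. In 29 of the 39 the highest library was at most 2 times the lowest. Tpm3, a tropomyosin, ranged over a factor of 1.10 and Arpc2 over 1.13. Vasp varied most among members with means above 100 CPM, at 3.88, followed by the alpha-actinin gene Actn1 at 3.62 and the adhesion gene Zyx at 2.73. Genes of like abundance served as the measure: at 500 CPM or more, the median factor was 1.35 over 14 members and 1.60 over all 313 genes, and between 100 and 500 CPM it was 1.64 over 19 members and 1.82 over 1714 genes. Below 100 CPM, Was, Cnn2 and Lsp1 ranged over factors of 1.99, 2.98 and 12.8, and Fscn1, with 0 counts in 1 library, has no such factor. Without genes that had a library at 0, the median there was higher over members, at 2.98, than over all genes tested, at 2.50.

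The summed level of the 39 genes did not follow IL-21 or the subset. It was 33270 and 28740 CPM in Ly6Chi cells without IL-21, 31950 and 29000 with it, 31840 and 29410 in Ly6Clo cells without it, and 31900 and 30120 with it. Each group mean lay between 30480 and 31010 CPM, with SDs of 1259 to 3203 (n = 2 each), so the groups overlapped. The ratio of the means was 0.998 for IL-21 against none, 1.003 for Ly6Clo against Ly6Chi and 0.909 for number 2 against number 1. All 4 libraries numbered 1 were above all 4 numbered 2. Without Actb and Tmsb4x the gap was smaller, at 19160 to 19720 CPM in number 1 and 18260 to 18680 in number 2. By role, the Arp2/3 genes with Was, Vasp and Coro1a held the largest sum in every library, at 7946 to 9109 CPM. Next came the monomer-binding and turnover genes (6756 to 7895) and the actins (5536 to 7759). Bundling genes ranged from 1370 to 2188 CPM, and in each group the library numbered 1 was above that numbered 2. With IL-21 the bundling sum was lower in each subset and number. In Ly6Chi this was 1821 against 1955 and 1370 against 1598 CPM, and in Ly6Clo 1790 against 2188 and 1478 against 1674. The myosin and tropomyosin sum was higher in each. Adhesion genes summed to 1262 to 1425 CPM in Ly6Chi and 1191 to 1259 in Ly6Clo libraries, without overlap. Sums of the other roles overlapped between the subsets, and no sum was tested.

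**Figure D2:**
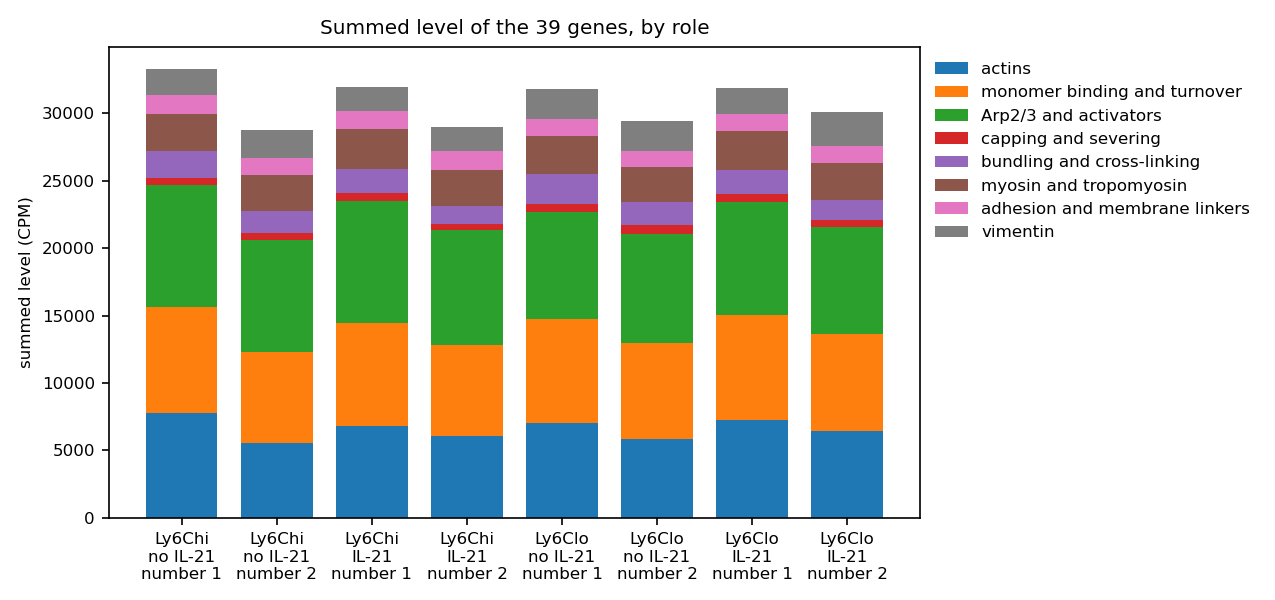
Summed level of the 39 genes (CPM) in each of the 8 libraries, stacked by role. The bars numbered 1 reach 31840 to 33270 CPM and those numbered 2 reach 28740 to 30120 CPM, while bars with and without IL-21 have like heights.

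IL-21 was compared with no IL-21, first over both subsets (4 libraries against 4). By edgeR's quasi-likelihood test, none of the 37 tested members passed at an adjusted p under 0.05, where 0.171% of the 5256 genes tested did, all of them upward. The largest differences belonged to 2 bundling genes with few counts, Fscn1 and Lsp1, both lower with IL-21. Actb, Tmsb4x, Arpc1b, Vim and Arpc2 had log2 fold changes between -0.09 and 0.04. Of the 37 members, 19 were higher and 18 lower, with a median log2 fold change of 0.01 against -0.01 over all genes tested, and 34 lay within 0.5 of 0.

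Within single subsets the picture was like that of the average, with which they share libraries. In Ly6Chi cells 0 of 37 members passed (0.019% of all genes did), 17 were higher and 20 lower, and the median log2 fold change was -0.04. In Ly6Clo cells 0 of 37 passed (0.133% of all genes did), 20 were higher and 17 lower, and the median was 0.01. At an unadjusted p under 0.05 there were 2 members in Ly6Chi, 4 in Ly6Clo and 3 in the average, against 3.52%, 3.52% and 5.35% of all genes, and DESeq2 and limma-voom also called 0 members in each. With 2 libraries against 2, in Ly6Chi 3 members lay above the other group in both (Arpc5, Cnn2 and Zyx, against 15.6% of all genes) and 5 below (Actr3, Fscn1, Flna, Actn1 and Vim, against 15.8%). In Ly6Clo 4 lay above (Wdr1, Arpc5, Myl6 and Zyx, against 15% of all genes) and 7 below (Actr2, Gsn, Fscn1, Cnn2, Lsp1, Actn4 and Msn, against 14.5%). Arpc5, Zyx and Fscn1 did so in the same direction in both subsets, and Cnn2 in opposite directions. The median standard error (SE) of a member was 0.25 in a single subset and 0.18 in the average.

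**Figure D3:**
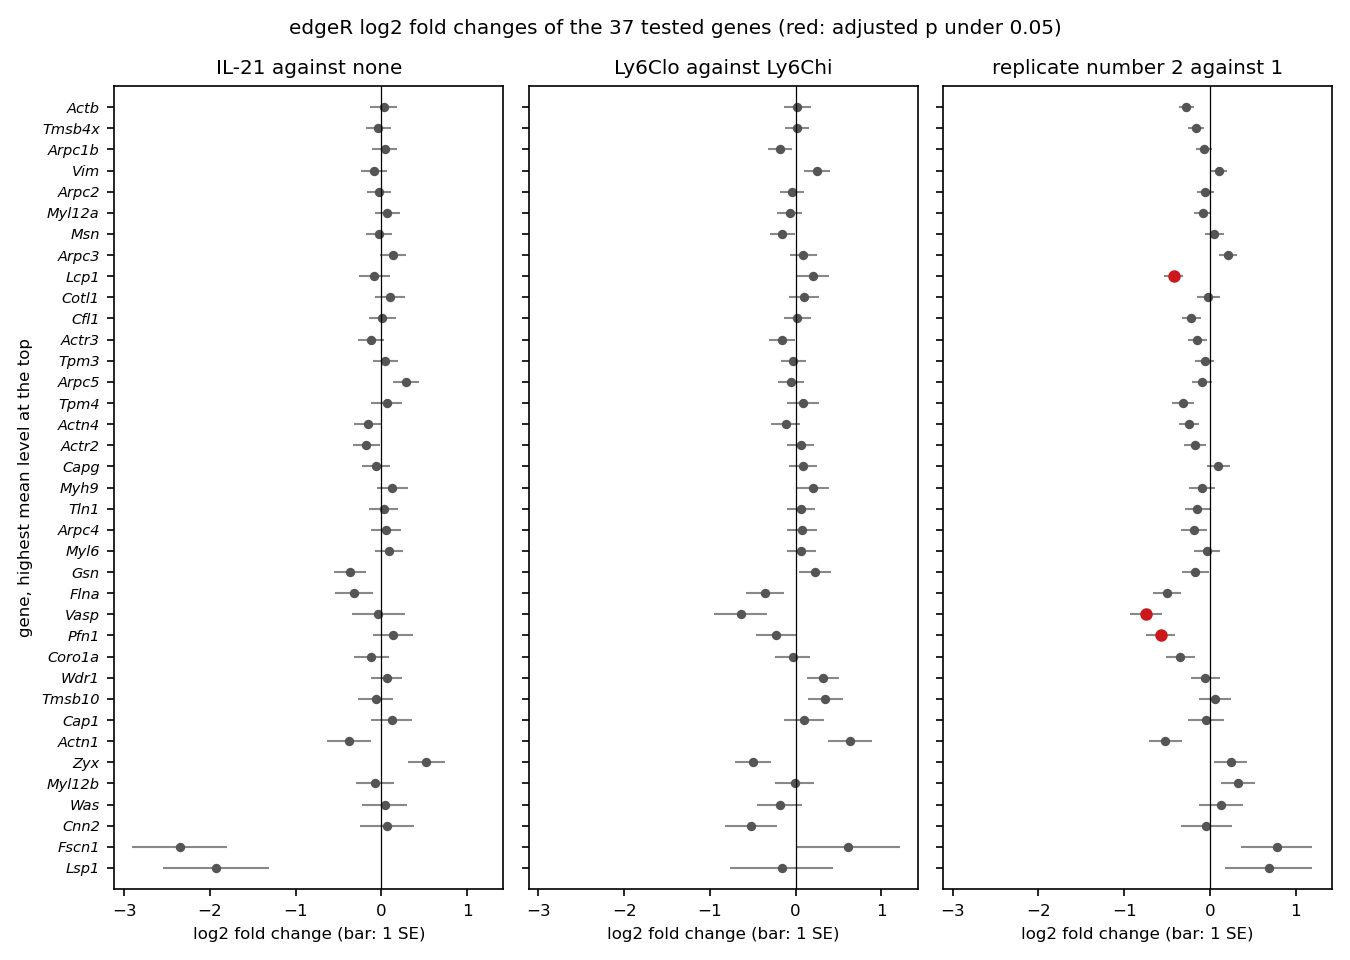
edgeR log2 fold changes of the 37 tested genes (points, bars are 1 SE), with genes in order of mean level, for IL-21 against none, Ly6Clo against Ly6Chi, each averaged over the other factor, and replicate number 2 against 1. Lcp1, Vasp and Pfn1 in the third panel, in red, are the 3 with an adjusted p under 0.05, and Fscn1 and Lsp1 lie farthest from 0 in the first.

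Fscn1 encodes fascin, which packs filaments into the straight bundles of filopodia and of dendritic cell processes. Its gene (ENSMUSG00000029581) lies on chromosome 5 at 142960343 to 142973185, plus strand. In the order number 1, number 2, it had 45.2 and 45.8 CPM in Ly6Chi cells without IL-21 and 11.3 and 4.96 with it, then 41.5 and 89.96 CPM in Ly6Clo cells without it and 0 and 22.2 with it. All 4 libraries with IL-21 lay below all 4 without it, a pattern of 1.52% of all genes tested. These levels stand on 74 counts without and 13 with IL-21, and the 0 allows up to 12.0 CPM in that library. The log2 fold change was -2.36 (SE 0.89) in Ly6Chi, -2.35 (SE 0.67) in Ly6Clo and -2.35 (SE 0.55) in the average, with edgeR quasi-likelihood adjusted p-values of 1.0, 0.777 and 0.177. Fscn1 passed the edgeR test, however, with no filter on low counts (adjusted p 0.000117 in the average and 0.0132 in Ly6Clo). It also passed in the average when number 2 of the Ly6Clo libraries with IL-21 was left out (log2 fold change -4.81, edgeR adjusted p 0.0165), where the remaining Ly6Clo library with IL-21 holds 0 counts, so that the fitted value depends on the prior count. The Ly6Clo value was -7.27 in that fit and did not pass. It was -1.63 when number 2 of the Ly6Clo libraries without IL-21 was left out and also -1.63 without number 1 of those with IL-21, and the average then stood at -1.99 and -2.00. With the replicate number added to the model, which treats same-numbered libraries as pairs that the labels do not give, Fscn1 passed as well (edgeR adjusted p 0.0373 in Ly6Clo and 0.00504 in the average).

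Mature dendritic cells are a known source of Fscn1. The sum of dendritic cell markers, not all of them particular to mature cells, was also lower with IL-21 in each subset. The summed level of 10 such markers was 28.8 to 68.6 CPM in Ly6Chi cells without IL-21 and 9.93 to 11.3 with it. In Ly6Clo cells it was 58.1 to 143 CPM without and 7.99 to 34.5 with IL-21. These sums rest on few counts: over all 8 libraries a marker had from 0 (Ccl17) to 48 counts (Ccr7). From 1 to 9 of the 10 markers were above 0 in a library. Ccr7, the receptor by which dendritic cells reach lymph nodes, had 16.4 and 15.2 CPM in Ly6Chi cells without IL-21 and 0 and 4.96 with it, and 16.6 and 63.6 CPM in Ly6Clo cells without IL-21 and 0 and 14.8 with it. The highest Fscn1 level and the highest marker sum fell in the same library, Ly6Clo without IL-21 numbered 2. Elsewhere their order differed. Ly6Clo with IL-21 numbered 2 had a sum of 34.5 and Fscn1 at 22.2 CPM, against 28.8 and 45.2 in Ly6Chi without IL-21 numbered 1. Zbtb46, on 7 counts over all libraries, was higher with IL-21 in Ly6Clo cells, at 4.15 and 4.39 CPM without and 7.99 and 4.93 with it. It made up the whole sum of Ly6Clo with IL-21 numbered 1. None of the 10 markers had enough counts for the test, and their part in the Fscn1 result was not tested.

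**Figure D4:**
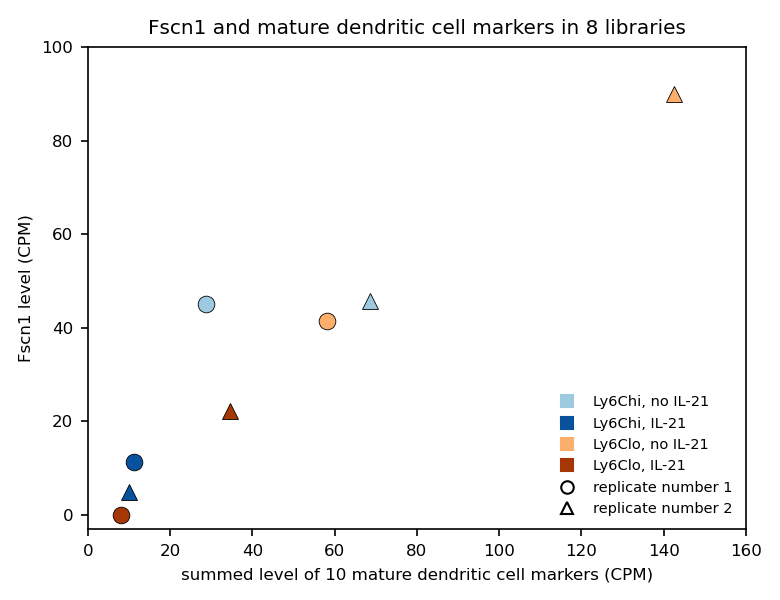
Fscn1 level (CPM, vertical) against the summed level of 10 dendritic cell markers (CPM, horizontal, labelled mature dendritic cell markers) in the 8 libraries. Colours mark groups and shapes mark replicate numbers. The 4 libraries with IL-21 lie at 0 to 22.2 CPM of Fscn1, below the 4 without it at 41.5 to 89.96 CPM.

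Lsp1 (ENSMUSG00000018819, chromosome 7, 142460809 to 142494867, plus strand) had 16.4 and 38.1 CPM in Ly6Chi cells without IL-21 and 3.76 and 24.8 with it. In Ly6Clo cells it had 41.5 and 48.3 CPM without and 7.99 and 4.93 with IL-21. The Ly6Clo groups were apart and the Ly6Chi groups overlapped, on 1 to 22 counts per library. The log2 fold change was -1.05 (SE 0.88) in Ly6Chi, -2.81 (SE 0.84) in Ly6Clo and -1.93 (SE 0.61) in the average, and the edgeR adjusted p was 0.777 in Ly6Clo and 0.579 in the average. Among the bundling and cross-linking genes, 6 of 7 tested members were lower with IL-21 in the average and 0 passed, with a median of -0.32. Besides Fscn1 and Lsp1 these were Actn1 (-0.38, SE 0.25), the cross-linker filamin A gene Flna (-0.32, SE 0.22), Actn4 (-0.15, SE 0.17) and Lcp1 (-0.08, SE 0.18).

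On the side of higher values stood Arpc5 and Zyx. Arpc5 (ENSMUSG00000008475, chromosome 1, 152766542 to 152775597, plus strand), a subunit of Arp2/3, had 501 and 488 CPM in Ly6Chi cells without and 610 and 566 with IL-21, and 473 and 456 CPM in Ly6Clo cells without and 616 and 552 with it. All 4 libraries with IL-21 lay above all 4 without it, which held for 2.19% of all genes tested. The difference was small, 0.29 on the log2 scale in the average (SE 0.15), where the edgeR adjusted p was 0.993. It was 0.25 (SE 0.21) in Ly6Chi and 0.33 (SE 0.21) in Ly6Clo. Zyx (ENSMUSG00000029860, chromosome 6, 42349630 to 42360213, plus strand), which encodes the adhesion protein zyxin, had 115 and 137 CPM without and 139 and 159 with IL-21 in Ly6Chi cells. In Ly6Clo cells it had 58.1 and 83.4 CPM without and 124 and 133 with it. The Ly6Clo value without IL-21 was the low one of its 4 groups. Its log2 fold change was 0.82 (SE 0.30) in Ly6Clo and 0.53 (SE 0.21) in the average, with edgeR adjusted p-values of 1.0 and 0.825.

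Summed fibroblast and cardiomyocyte markers also differed between the Ly6Clo groups without overlap, as Fscn1, Lsp1, Cnn2 and Zyx did. These sums and Zyx were higher with IL-21, while Fscn1, Lsp1 and Cnn2 were lower. Of all genes tested, 15% lay higher in this way and 14.5% lower. Sums of smooth muscle markers overlapped in Ly6Clo cells (0 to 13.2 CPM without and 12.3 to 36.0 with IL-21). Those of endothelial markers did too (66.4 to 204 and 104 to 192 CPM). Fibroblast markers summed to 24.9 to 37.3 CPM without and 144 to 168 CPM with IL-21 in Ly6Clo cells, with 4 to 7 of 10 above 0 and Mmp2 at 0 in all 8 libraries. In Ly6Chi cells the sums were 78.05 to 198 CPM without and 22.6 to 99.3 with it, and these overlapped. Cardiomyocyte markers summed to 0 to 8.78 CPM without and 24.6 to 108 CPM with IL-21 in Ly6Clo cells, with 0 to 7 of 10 above 0 and Myh7 and Actn2 at 0 throughout. In Ly6Chi cells those sums were 8.22 to 53.4 CPM without and 11.3 to 29.8 with IL-21, and these overlapped. Their part in the Ly6Clo values of the members was not tested.

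**Figure D5:**
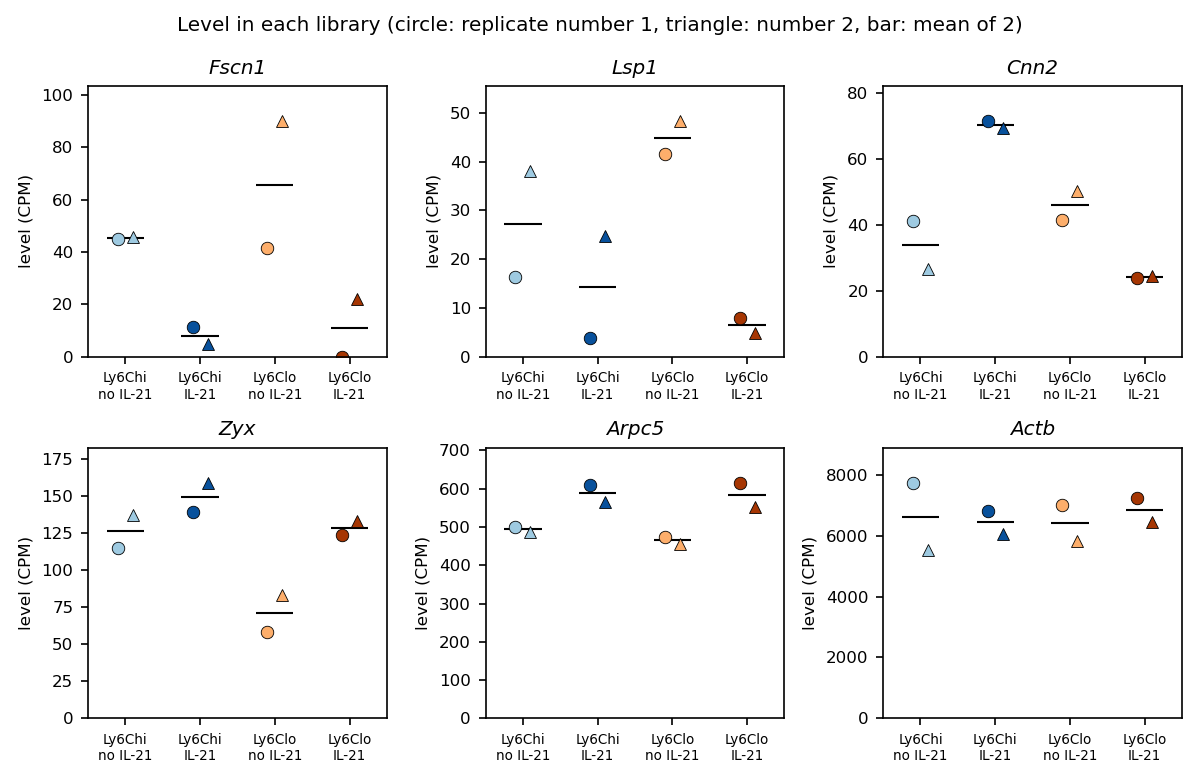
Level (CPM, axes from 0) of Fscn1, Lsp1, Cnn2, Zyx, Arpc5 and Actb in the 8 libraries, by group, with a circle for replicate number 1, a triangle for number 2 and a bar for the mean of the 2. Fscn1 is low in both groups with IL-21, Cnn2 is at 69.5 and 71.5 CPM in Ly6Chi and at 24.0 and 24.6 CPM in Ly6Clo cells with IL-21, and Actb differs more between numbers than between groups.

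Of the other roles, Arp2/3 genes with Was, Vasp and Coro1a split 5 higher to 5 lower with IL-21 in the average (median log2 fold change 0.01). Of the monomer-binding and turnover genes, 5 of 7 were higher (median 0.06), and 0 passed in either role. The Arp2/3 subunit Actr3 had 789 and 755 CPM in Ly6Chi cells without and 674 and 571 with IL-21, a log2 fold change of -0.31 (SE 0.22). In Ly6Clo cells its values were 610 and 599 CPM without and 699 and 576 with it, and these overlapped. Myosin and tropomyosin genes were higher in 5 of 6 cases, with values from -0.07 to 0.13. The capping and severing genes Capg (-0.06, SE 0.16) and Gsn, gelsolin (-0.37, SE 0.19), were both lower. The holders of a CArG box that could be tested had averaged log2 fold changes of 0.06 (Arpc4, SE 0.17), 0.06 (Cnn2, SE 0.31) and 0.09 (Myl6, SE 0.17). That of Cnn2 averages opposite values, 1.06 (SE 0.42) in Ly6Chi and -0.93 (SE 0.43) in Ly6Clo.

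The IL-21 effects of the subsets were then set against each other. None of the 37 members passed, and neither did any of the 5256 genes (0% by edgeR, where 92 genes, 1.75%, had an unadjusted p under 0.05, among them 1 member, and 0 genes by DESeq2 and by limma-voom). The member with the smallest p was Cnn2, which encodes calponin 2, a protein that binds actin and tropomyosin and restrains myosin (ENSMUSG00000004665, chromosome 10, 79988584 to 79996062, plus strand). It had 41.1 and 26.7 CPM in Ly6Chi cells without IL-21 and 71.5 and 69.5 with it, and 41.5 and 50.5 CPM in Ly6Clo cells without IL-21 and 24.0 and 24.6 with it. Groups with and without IL-21 did not overlap in either subset, and the direction was opposite. On 6 to 23 counts per library, the log2 fold change was 1.06 (SE 0.42) in Ly6Chi and -0.93 (SE 0.43) in Ly6Clo, a difference of -1.99 (SE 0.60). Its unadjusted p of 0.00477 was the fourth smallest of all genes tested, at an edgeR adjusted p of 1.0. Of the other members, Lsp1 differed by -1.75 (SE 1.30), Zyx by 0.59 (SE 0.42) and Wdr1, a cofactor of cofilin, by 0.54 (SE 0.37), each with an edgeR adjusted p of 1.0. The Lsp1 difference was -0.07 when number 2 of the Ly6Chi libraries with IL-21 was left out and was -2.66 without number 1. That of Zyx was 0.91 without number 2 of the Ly6Clo libraries that had no IL-21.

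The subsets were compared without IL-21, with IL-21 and over both, comparisons that share libraries with each other and with those of IL-21. In these, 0 of 37 members passed by edgeR, against 0.0381%, 0.019% and 0.19% of all genes. At an unadjusted p under 0.05 there were 2 members in each, against 4.57%, 5.27% and 7.78% of all genes, and DESeq2 and limma-voom called 0 members too. Each time 20 members were higher and 17 lower in Ly6Clo, with median log2 fold changes of 0.05, 0.02 and 0.02. Without IL-21, 7 members lay higher in both Ly6Clo libraries than in both Ly6Chi ones and 4 lower, against 16.8% and 17% of all genes, and with IL-21 these were 5 and 4, against 16.3% and 16.7%. Actn1 and Vim were among the higher ones both times, and Zyx among the lower ones. In no member did all 4 libraries of a subset lie above all 4 of the other, which held for 2.61% of genes in the direction of Ly6Clo and 2.8% in that of Ly6Chi. Ly6Chi libraries held more of the neutrophil marker sum (1399 to 2336 CPM against 641 to 1262). Most of it was Mmp8 (1285 to 2152 CPM against 538 to 1196), while S100a8 and Csf3r overlapped between the subsets. The part of this sum in the subset values was not tested.

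None of the members described next passed. They are the 2 members in each direction with the smallest p, which over both were Actn1, Wdr1, Zyx and Vasp, without IL-21 Actn1, Cnn2, Zyx and Vasp, and with it Wdr1, Actn1, Cnn2 and Pfn1. Actn1 (ENSMUSG00000015143, chromosome 12, 80167547 to 80260371, minus strand) had 107 and 111 CPM in Ly6Chi and 216 and 134 in Ly6Clo cells without IL-21, and 105 and 59.6 against 160 and 106 CPM with it. Over both, Actn1 stood at a log2 fold change of 0.64 (SE 0.25) and did not pass (edgeR adjusted p 0.541). Wdr1 had 168 and 134 CPM in Ly6Chi and 149 and 160 in Ly6Clo cells without IL-21, and 135 and 124 against 192 and 200 CPM with it. The subsets overlapped without IL-21 and not with it, and the log2 fold change was 0.59 (SE 0.26) with IL-21 and 0.32 (SE 0.18) over both. Zyx was lower in Ly6Clo, by the values above, with a log2 fold change of -0.79 (SE 0.31) without IL-21 and -0.50 (SE 0.21) over both (edgeR adjusted p 0.995 and 0.559). Cnn2 without IL-21 stood at 0.47 (SE 0.42, and 0.18 to 0.81 with 1 library left out) and with it at -1.52 (SE 0.42), where the edgeR adjusted p was 0.725.

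Vasp, which promotes the growth of filament ends, had 341 and 152.5 CPM in Ly6Chi and 166 and 87.8 in Ly6Clo cells without IL-21, and 241 and 124 against 152 and 155 CPM with it. In 3 of the 4 groups number 1 lay well above number 2, and the subsets overlapped. Its log2 fold change for Ly6Clo against Ly6Chi was -1.01 (SE 0.44) without IL-21 and -0.64 (SE 0.31) over both, with edgeR adjusted p-values of 0.995 and 0.636. Leaving out number 1 of the Ly6Chi libraries without IL-21 brought these to -0.32 and -0.30. Pfn1 with IL-21 stood at -0.46 (SE 0.33, edgeR adjusted p 0.979), its subsets overlapped, and leaving out 1 library moved the value between -0.75 and -0.18.

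The libraries numbered 2 were compared with those numbered 1 in a model that also held the group. The labels do not say what the numbers stand for. Of the 37 members, 3 passed (8.11%, against 8.18% of all genes tested), and all 3 were lower in number 2, where 3.6% of all genes were called lower and 4.59% higher. The genes were Lcp1, Vasp and Pfn1. A further 24 members were lower without passing and 10 were higher, and the median log2 fold change was -0.09 against -0.0044 over all genes. At an unadjusted p under 0.05 there were 7 members, all lower, where 21.6% of all genes passed in either direction.

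Lcp1 encodes L-plastin, the filament bundler of leukocytes (ENSMUSG00000021998, chromosome 14, 75131101 to 75230842, plus strand). It had 961, 839, 1067 and 967 CPM in the libraries numbered 1, in the order Ly6Chi without and with IL-21 and Ly6Clo without and with IL-21, and 690, 620.5, 720 and 828 CPM in those numbered 2. No library numbered 2 reached one numbered 1. The log2 fold change was -0.42 (SE 0.11), with an edgeR adjusted p of 0.0124. Pfn1, profilin 1, which helps actin monomers exchange ADP for ATP (ENSMUSG00000018293, chromosome 11, 70651850 to 70654644, minus strand), had 189, 233, 212 and 184 CPM in number 1 and 134, 179, 121 and 123 in number 2. Here too the numbers did not overlap, and the log2 fold change was -0.58 (SE 0.17, edgeR adjusted p 0.0306). Vasp (ENSMUSG00000030403, chromosome 7, 19256929 to 19271817, minus strand), with the values above, was lower in number 2 in 3 of 4 groups. Its log2 fold change was -0.74 (SE 0.19), with an edgeR adjusted p of 0.0125.

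The 3 calls were not stable. DESeq2 called 0 of 37 members, while limma-voom called 5, adding Actb and Flna. When each of the 8 libraries was left out in turn, Lcp1 stayed past the threshold 6 times, Vasp 4 times and Pfn1 2 times, with log2 fold changes below 0 each time. Without either of the Ly6Clo libraries that had no IL-21 the count was 0, and without either of the Ly6Chi libraries that had none it was 1. In the Ly6Chi libraries alone 1 member passed, Vasp, and in the Ly6Clo libraries alone 4 passed, Fscn1, Pfn1, Lcp1 and Flna. Each of these 2 fits held 4 libraries. The share of all genes called in these alternatives is not given here. Their counts are therefore not a result about the members as a set.

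Beyond these 3, Flna (-0.50, SE 0.16, edgeR adjusted p 0.0526) and Actb (-0.27, SE 0.09, edgeR adjusted p 0.0668) came nearest. Actb, Pfn1, Cfl1 (cofilin), Tmsb4x, Coro1a (coronin 1A, which works with Arp2/3) and Lcp1 were lower in all 4 libraries numbered 2 than in all 4 numbered 1, which held for 5.27% of all genes tested. Myl12b, a myosin light chain, was the 1 member higher in all 4, against 5.84% of all genes. Group by group, 12 of 37 members were lower in number 2 in all 4 groups and 12 more in 3 of 4, against 14.1% and 21.9% of all genes. Vcl, which was not tested, had 45.2, 26.3, 33.2 and 32.0 CPM in number 1 and 19.1, 9.93, 15.4 and 12.3 in number 2, in the order used for Lcp1. Its numbers did not overlap, on 2 to 11 counts per library. On the higher side stood Fscn1 (0.78, SE 0.41) and Arpc3, the Arp2/3 subunit with 760, 768, 805 and 863 CPM in number 1 and 801, 1023, 922 and 961 in number 2 (0.21, SE 0.11, edgeR adjusted p 0.259). The value of Fscn1 was -0.18 (SE 0.64) in the Ly6Chi libraries alone and 1.46 (SE 0.49, edgeR adjusted p 0.0342) in the Ly6Clo libraries alone.

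Other measures moved with the replicate number. Summed macrophage markers were 9589 to 12380 CPM in number 1 and 7889 to 8510 in number 2, all 9 detected markers being above 0 in each. Lyz2 accounted for most of that gap, at 4236 to 6786 CPM in number 1 and 2487 to 3445 in number 2. The markers did not fall as a set: of 9 tested, 5 were higher and 4 lower in number 2 (median log2 fold change 0.004). By edgeR, Lyz2 and Csf1r were called lower. Fcgr1 was called higher, at 502 to 653 CPM in number 1 and 709 to 1047 in number 2. Summed endothelial markers were 66.4 to 144 CPM in number 1 and 192 to 337 in number 2, nearly all of it Kdr, with Tie1 at 0. The Ly6Clo libraries numbered 2 were also the deepest, at 444670 and 483593 counts. The part of these in the results on replicate numbers was not tested.

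A wider list of 136 other actin cytoskeleton genes gave a like picture. Of these, 96 were tested, and 0 of 96 passed by edgeR in any comparison of IL-21 or subset, against 0 to 0.19% of all genes. At an unadjusted p under 0.05 there were 0 to 9. The 9 fell in Ly6Clo against Ly6Chi over both, where 7.78% of all genes passed. The 0 fell in the difference between the IL-21 effects, where 1.75% did. The average IL-21 effect was above 0 for 40 and below 0 for 56, with a median of -0.03. Within it, 9 of 18 further Arp2/3, WAVE and WASP genes were higher and 9 lower (median 0.0016), and 8 of 13 further cross-linkers were lower (median -0.01). Between replicate numbers 6 of 96 passed (6.25%, below the 8.18% of all genes tested). Marcks, which links actin to the membrane, Lpxn (leupaxin, of adhesions), Aif1 (which bundles actin in macrophages) and Flii (a gelsolin relative) were higher in number 2, at log2 fold changes of 0.41 (SE 0.10), 0.78 (SE 0.20), 0.45 (SE 0.12) and 0.85 (SE 0.26). Tagln2 (transgelin 2, -0.73, SE 0.11) and Svil (supervillin, -1.24, SE 0.29) were lower, and the 6 edgeR adjusted p-values lay between 4.98e-05 and 0.0401. The genes of SRF and its MRTF coactivators were tested in 2 of 5 cases, both with averaged IL-21 values below 0 and neither called. Of 14 tubulin genes 10 were tested, and edgeR called 0 in any comparison. At most 2 had an unadjusted p under 0.05, between replicate numbers, where 21.6% of all genes did.

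Near-identical sequences limit how far some levels can be read. The last 300 bases of each member's transcript were compared with all annotated transcripts, and 14 of 39 matched another gene over at least 75 bases at 95% identity or more. Was is the least certain, since a stretch of its 3′ end recurs in 27 other genes. Myl12a and Myl12b share 252 bases at 98.8% identity, and Myl6 shares 178 bases at 99.4% with Gm5526, a processed pseudogene with 251 counts against 503 for Myl6. The 3′ ends of Arpc1b, Cap1, Actn4 and Vcl overlap Pdap1, Ppt1, Capn12 and Ap3m1 on the opposite strand, and whether strand was used in counting is not given in the sources used here. Fscn1, Lsp1, Cnn2, Lcp1, Vasp, Pfn1, Actb and Actg1 had no such match.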

How the data were processed

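RNA was measured in 8 libraries of sorted and cultured heart macrophages (4 groups of 2). Per the labels, a QuantSeq 3′ kit with a module for unique molecular identifiers was used, and 75 bases were read from a single end. What the authors deposited are expected counts, estimates per Ensembl gene that can be fractional. Of the values above 0, 53.3 to 59.7% per library were not whole at a tolerance of 0.001, and all were rounded to whole numbers first. The build mm10 and DESeq2 are named without version, per the submitters' processing notes. Which aligner, counting program and annotation were used, and whether identifiers and strand were, is not given in the sources used here. If the identifiers were not used, counts include amplified copies, and limits from counts hold for counting error alone.

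Symbols and positions came from GENCODE M21 (GRCm38), which held 53237 of 53342 identifiers. Genes were kept by edgeR's filterByExpr (minimum count 10, minimum total 15), which left 5256. Counts were normalised by TMM (factors 0.968 to 1.02) and fitted in R 4.3.3 with limma 3.58.1 and edgeR 4.0.16, in one robust quasi-likelihood model of 4 group means with 4 residual degrees of freedom, or 3 when replicate number was added. A gene was called at a Benjamini-Hochberg adjusted p under 0.05 over all genes tested. The SE of a log2 fold change is its size divided by the square root of F. It is an approximation, and is unreliable for values near 0 and for genes with few counts. The fit was tested on simulated data. Alternatives were DESeq2 1.42.0, limma-voom, DESeq2 size factors, other filters, unrounded values, a replicate block, the compared groups alone and leaving out each library. Transcript ends were compared with BLAST 2.17.0.

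The members and lists were chosen with earlier results of these data known. Values in every library are given for Actb and Actg1, for members called in any comparison and for the 2 members per direction with the smallest p in each. No other list genes are named unless called, except markers. The summed level has no test.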

Additional observations from a re-analysis of the deposited data

How the results depend on the processing

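In Ly6Clo, 1 member (Fscn1) passed for IL-21 against none with no filter on low counts and 1 with the replicate block (log2 fold change -2.36, edgeR adjusted p 0.0373), against 0 in the fit reported. In the average over subsets, 1 member (Fscn1) passed with no filter, 1 with the replicate block (-2.33, edgeR adjusted p 0.00504), and 0 to 1 over the fits with 1 library left out. Among same-numbered libraries, deviations from group means had correlations of 0.206 to 0.383 over 6 pairs of groups. A comparison of 2 groups would hold 2 such pairs, and the average 4. The labels tie no libraries together, so the numbers were not taken as pairs. Differences between them therefore stayed in the spread of the fit reported. With the replicate block, the calls for IL-21 over all 5256 genes rose from 1 to 14 in Ly6Chi and from 7 to 29 in Ly6Clo. Among the members the block changed no other call.

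Between replicate numbers, 3 members passed. The count was 0 with DESeq2 (4 at an unadjusted p under 0.05), 5 with limma-voom, 5 with a mean count of at least 20, 1 in the Ly6Chi libraries alone and 0 to 5 with 1 library left out. The log2 fold change of Fscn1 turned to -0.18 in the Ly6Chi libraries alone. The share of all genes called in those fits is not given here, and the cause of these shifts was not tested. Summed levels moved by less than their spread, and counts for the other comparisons were 0 under every alternative run. Depth limits members such as Fscn1, Lsp1 and Cnn2, with 56 to 99 counts over all libraries, and the fits with a library left out tested more genes (5878 to 6030), since the filter follows the smallest group.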
